A study of Mus musculus with 2 samples.

Results

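The 8 genes described here, Arg1, Retnla, Chil3, Mrc1, Ly6c2, Ccr2, Nos2 and Il1b, are mRNAs commonly used to sort macrophages by activation state and to mark recently arrived monocytes. They were chosen by name, with their levels in earlier results of these data known, so those levels are given as a description, and they are 8 of 29373 gene symbols listed in the files. All 8 were listed for both libraries. Their levels and co-detection were measured in ovarian cells with at least 1 molecule count (UMI) of Tyrobp, a signalling adaptor of myeloid cells, and at least 1 of Ctss, a lysosomal protease of antigen-presenting cells. Those cells were split by the summed counts of C1qa, C1qb and C1qc, the complement C1q chains that tissue macrophages make. They numbered 1272 of 28950 cells that passed the filters, 558 of them C1q-high and 714 C1q-low.

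Macrophages exposed to interferon-gamma and bacterial products are known to induce Nos2 and Il1b, while interleukin-4 and interleukin-13 act through STAT6 to induce Arg1, Retnla, Chil3 and Mrc1. NOS2 and ARG1 compete for arginine, one making nitric oxide and the other ornithine and urea. Classical monocytes leave the bone marrow through CCR2, carry the surface antigen LY6C2, and lose both as they become tissue macrophages. In the ovary macrophages surround growing follicles and enter the corpus luteum, where they take part in tissue remodelling.

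The cells came from ovaries of female ICR mice, an outbred stock, and were captured with BD Rhapsody beads. One library was from control mice given ddH2O and the other (PS-MP) from mice given 0.1 µm polystyrene microplastics, at 1 mg in 100 µL per mouse. Both groups were treated by oral gavage daily for 35 days from 3 weeks of age, and ovaries were collected when the mice were 8 weeks old. The labels give n = 16 for the ovaries without saying whether this holds for each group, and no cell was tied to a mouse, so each group is 1 pooled sample. No test of the exposure could be made, and every interval below covers counting error only, at 95%.

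Promoter windows from RefSeq (GRCm38.p6) were found for 6 of the 8 genes, and that of Retnla, a textbook STAT6 target whose counts lay in few cells, is printed here because it holds a STAT6-type sequence. The line gives the 250 bases upstream of the annotated start, 5′ to 3′ on the gene's own strand. The Retnla window lies at chr16:48842359-48842608 on the plus strand, with capitals marking a match to TTC, any 4 bases and GAA, the letters of a STAT6-type site.
Retnla: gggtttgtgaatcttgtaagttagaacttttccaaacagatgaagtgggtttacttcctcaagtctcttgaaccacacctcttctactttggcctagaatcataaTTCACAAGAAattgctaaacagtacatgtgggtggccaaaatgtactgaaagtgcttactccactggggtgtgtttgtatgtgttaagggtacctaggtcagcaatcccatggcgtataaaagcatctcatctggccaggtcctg

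The match begins 145 bases upstream of the start. Both strands were searched, and the STAT6-type letters were present in 5.85% of 32851 windows of the same length. Retnla also held TTGCNNAA, a C/EBP-type sequence, 134 bases upstream (9.56% of windows), and TATAAA 30 bases upstream (12.4% of windows). TATAAA was also present 31 bases upstream of Il1b. None of these 3 letter patterns was found in the windows of Chil3, Mrc1, Ly6c2 and Ccr2. A match is a run of letters and not a measured binding site.

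The control library held 861 of the Tyrobp and Ctss cells, 5.92% of its 14538 cells (5.54 to 6.32), and the PS-MP library 411, or 2.85% of 14412 (2.59 to 3.14). Within them the C1q-high share was 44.5% for control (41.1 to 47.9) and 42.6% for PS-MP (37.8 to 47.5), so the split was alike although the selected share was not. C1q-high cells, with at least 10 C1q counts per 10000, numbered 383 and 175, and C1q-low cells 478 and 236. A total of 619 selected cells had no C1q count at all, and 54 lay between 5 and 20 per 10000, near the limit. Median depth was 7898 UMIs in control and 6214 in PS-MP C1q-high cells, and 5881.5 and 5347 in C1q-low cells. The 2 libraries shared 3 cell numbers.

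**Figure D1:**
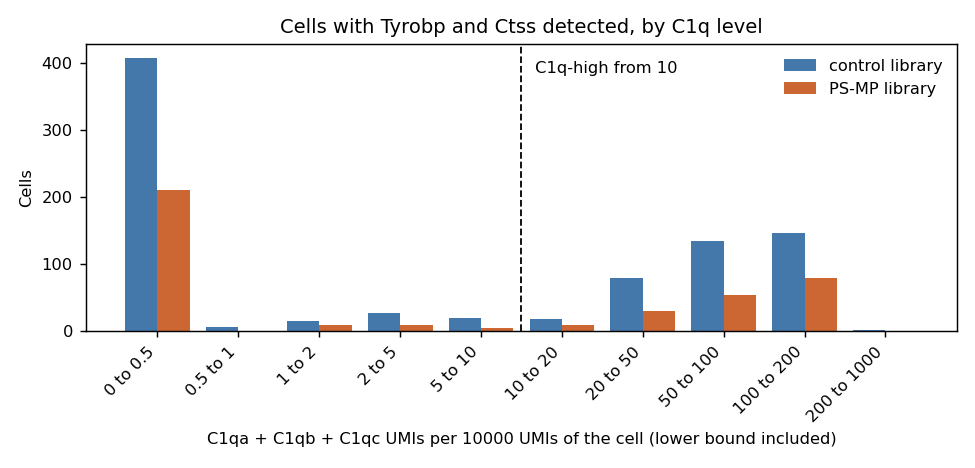
Number of cells (vertical axis) in each range of summed C1qa, C1qb and C1qc counts per 10000 UMIs (horizontal axis) among cells with Tyrobp and Ctss, for the control (blue) and PS-MP (orange) libraries. The lowest range holds 408 control and 211 PS-MP cells, few cells lie near the limit of 10 (dashed line), and most C1q-high cells lie above 50.

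The selected cells carried macrophage mRNAs, and the C1q-low cells also held dendritic cells. Rebuilt clusters named from marker genes placed 1000 of the 1272 in a macrophage or monocyte-like cluster, 94 in a conventional dendritic-like cluster and 91 in a plasmacytoid dendritic-like cluster. The latter 2 groups were wholly C1q-low. Macrophage genes used neither to select nor to split the cells were present in both divisions. In CPM (counts of a gene among 1e6 counts, summed over a group of cells) Csf1r, the receptor for macrophage growth factor, stood at 1012.9 in control and 998.5 in PS-MP C1q-high cells, and at 320.8 and 326.7 in C1q-low cells. Cd68, a lysosomal membrane protein, stood at 1696 and 1603, and at 719.9 and 604.5. Of 10 neutrophil markers 7 had counts in control cells of each division, while Ly6g, Camp and Ngp had none in either library. The list summed to 95.8 and 96.4 CPM in control and PS-MP C1q-high cells and to 173.2 and 130.1 CPM in C1q-low cells. In C1q-low cells S100a8 was 35.9 and 1.83 CPM and Cxcr2 26.4 and 5.50 CPM, whereas Mmp9 was 26.1 and 92.8 CPM, and the part of neutrophils in the C1q-low differences was not tested. Cells with 50 or more marker counts of follicle, stromal, vessel, oocyte or epithelial cells per 10000 made up 3.92% of control and 10.3% of PS-MP C1q-high cells, and 21.8% and 30.5% of C1q-low cells. The part of these cells in each result was measured by leaving them out, and is given where the value moved.

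**Figure D2:**
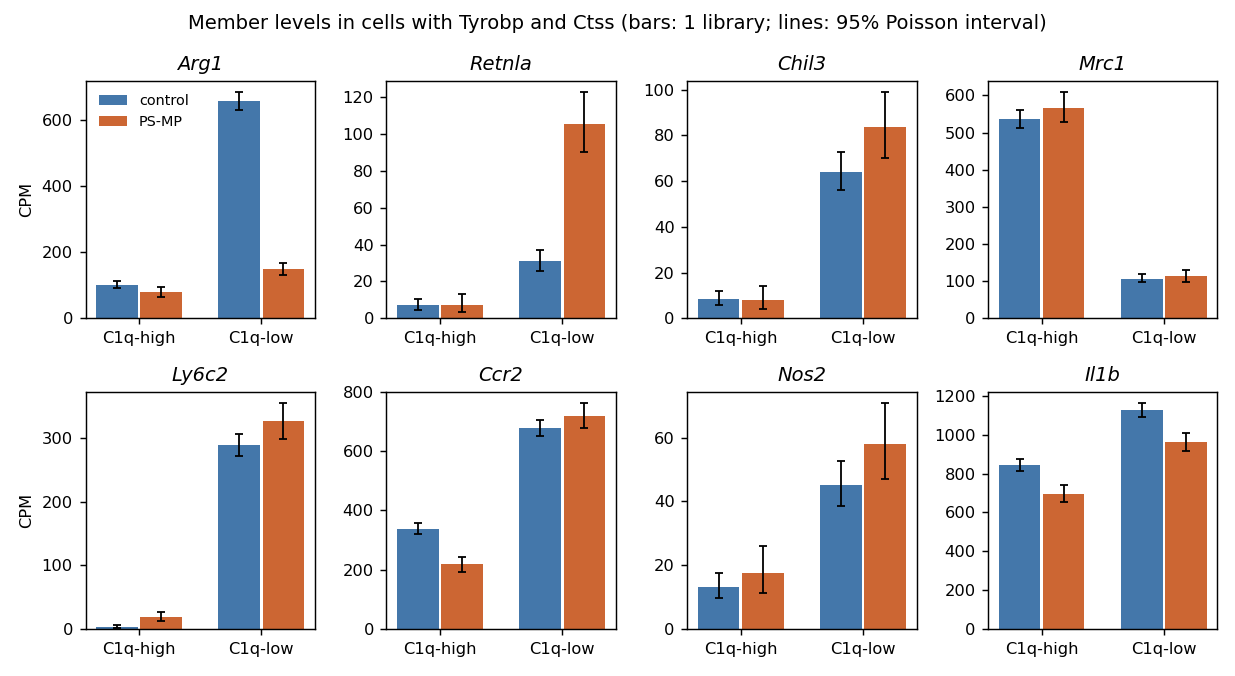
Level of each of the 8 genes in CPM (vertical axes, each starting at 0 and scaled per gene) in C1q-high and C1q-low cells of the control (blue) and PS-MP (orange) libraries; bars are single libraries and lines are 95% Poisson intervals. Arg1 in C1q-low cells stands at 656.5 CPM in the control and 147.8 CPM in the PS-MP library, and Mrc1 is the gene of the 8 that is higher in C1q-high cells.

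Arg1, which encodes arginase 1, had the widest PS-MP over control ratio of the 8 genes in C1q-low cells. These cells held 2339 Arg1 counts in the control library, or 656.5 CPM (630.1 to 683.6), and 242 counts in the PS-MP library, or 147.8 CPM (129.7 to 167.6). The PS-MP over control ratio was 0.225 (0.196 to 0.257). Both parts of the level differed: Arg1 was detected in 19.9% of control (16.4 to 23.7) and 11.9% of PS-MP cells (8.03 to 16.7), and cells with at least 2 Arg1 counts averaged 4408 and 1611 CPM. At equal depth, thinned to 3500 UMIs per cell, 17.6% and 10.6% of cells held an Arg1 count. The highest cell carried 131 counts in the control and 29 in the PS-MP library. In cells without the markers of other tissues the ratio was 0.276 (0.238 to 0.319).

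In C1q-low cells 342 of 7517 genes (4.55%) had a PS-MP level at least 1.5-fold under that of the control and 428 (5.69%) a level at least 1.5-fold over it, 10.2% in either direction, among genes with 20 CPM or more in a library. All 8 members reached 20 CPM there, and the same limits took Arg1 as lower and Retnla as higher. In C1q-high cells 218 of 6795 genes (3.21%) were lower and 336 (4.94%) higher, 8.15% in either direction. Only Arg1, Mrc1, Ccr2 and Il1b reached 20 CPM there, and Ccr2 was the 1 member past the limit, as lower. Over all selected cells 123 of 7167 genes (1.72%) were lower and 281 (3.92%) higher, 5.64% in either direction, and again Arg1 was lower (0.310, 0.277 to 0.347) and Retnla higher. These counts describe sizes in 2 libraries, and with so few members they do not set the 8 genes apart from other genes.

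C1q-high cells held less Arg1 and showed a smaller difference. The level was 101.2 CPM in the control (91.2 to 112.1) and 79.0 CPM in the PS-MP library (64.9 to 95.4), and the ratio was 0.781 (0.625 to 0.969). One PS-MP cell carried 64 of the 109 counts there. Without the highest cell of each library the ratio was 0.416 (0.297 to 0.572), and at equal depth it was 0.998 (0.727 to 1.36), so the size of this difference rested on single cells. The share of cells with Arg1 was 8.62% in the control and 8.00% in the PS-MP library.

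Retnla, which encodes the secreted protein RELM-alpha, was rare. It was detected in 18 control cells and 7 PS-MP cells of the 1272. In C1q-low cells it stood at 30.9 CPM in the control (25.4 to 37.2) and 105.6 CPM in the PS-MP library (90.5 to 122.6), with a ratio of 3.42 (2.68 to 4.39). A single PS-MP cell held 162 of the 173 PS-MP counts, and 1 control cell held 58 of 110. With the highest cell of each library left out the ratio was 0.461 (0.217 to 0.894), so the direction turned with 1 cell. The share of C1q-low cells with Retnla was 2.30% in the control and 1.27% in the PS-MP library. C1q-high cells held 7.11 and 7.25 CPM.

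Chil3 encodes the chitinase-like protein Ym1, made by classical monocytes and by interleukin-4-treated macrophages. Its C1q-low level was 64.0 CPM in the control (56.0 to 72.9) and 83.7 CPM in the PS-MP library (70.2 to 98.9), a ratio of 1.31 (1.05 to 1.62). Chil3 was detected in 9.83% and 15.7% of those cells, and in 8.79% and 13.6% at equal depth. C1q-high cells held 8.48 and 7.98 CPM. By sequence, 29.4% of the 50-base windows of the Chil3 transcript also occur in another gene, most often Chil4, and Chil4 had no count in the selected cells. How reads shared with such copies were counted is not given in the sources used here, so the Chil3 values are uncertain to that extent.

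Mrc1, the mannose receptor CD206, behaved differently from the other 7 genes across the C1q split. C1q-high cells held 536.6 CPM in the control (513.1 to 560.8) and 567.1 CPM in the PS-MP library (528.0 to 608.2), and C1q-low cells 106.6 and 113.6 CPM. The C1q-high level was 5.03-fold the C1q-low level in the control library (4.51 to 5.63) and 4.99-fold in the PS-MP library (4.25 to 5.89). Between the libraries the ratio was 1.06 in both C1q-high (0.972 to 1.15) and C1q-low cells (0.889 to 1.27). The intervals of both included 1. Mrc1 was detected in 87.0% of control and 85.7% of PS-MP C1q-high cells, and in 28.5% and 28.0% of C1q-low cells.

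Ly6c2, the monocyte surface antigen, was almost restricted to C1q-low cells. Its level was 289.1 CPM in control (271.7 to 307.3) and 326.7 CPM in PS-MP C1q-low cells (299.6 to 355.6), against 3.28 and 18.1 CPM in C1q-high cells. C1q-low cells thus held 88.0-fold more in the control (50.2 to 170.9) and 18.0-fold more in the PS-MP library (12.1 to 28.1). The PS-MP over control ratio in C1q-low cells was 1.13 (1.02 to 1.26). It was 1.94 (1.68 to 2.23) without the plasmacytoid dendritic-like cells, which hold the most Ly6c2 and made up a larger part of the control cells, and 2.53 (2.16 to 2.97) in the macrophage or monocyte-like cluster alone. In C1q-high cells the ratio of 5.52 (2.67 to 12.1) compares 12 counts in 7 control cells with 25 counts in 7 PS-MP cells, and it was 2.65 (1.46 to 4.81) with the C1q limit at 5 per 10000. Windows of the Ly6c2 transcript that occur in another gene made up 33.0% of all, nearly all of them in Ly6c1. Blood endothelial-like cells held 737.5 and 1028 CPM of Ly6c1 but 2.15 and 0.967 CPM of Ly6c2.

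Ccr2, the chemokine receptor that draws monocytes into tissue, was the 1 member past the 1.5-fold limit in C1q-high cells. The level was 338.5 CPM in the control (319.9 to 357.9) and 217.5 CPM in the PS-MP library (193.6 to 243.6), and the ratio was 0.643 (0.565 to 0.730). Ccr2 was detected in 47.3% of control (42.2 to 52.4) and 32.0% of PS-MP C1q-high cells (25.2 to 39.5), and in 37.6% and 25.1% at equal depth. The lower PS-MP level thus went with fewer Ccr2-positive cells, and the part of the mix of cell groups within the division was not tested. Cells with at least 2 Ccr2 counts averaged 963.2 CPM in the control and 1108 CPM in the PS-MP library. Positive cells held a median of 5 and 3 Ccr2 counts. PS-MP C1q-high cells were less deep, at a median of 6214 against 7898 UMIs, and the level in positive cells was not compared at equal depth. C1q-low cells held 676.9 and 719.9 CPM, with a ratio of 1.06 (0.991 to 1.14), and Ccr2 was detected in 70.5% and 75.8% of them. The C1q-low level was 2.0-fold the C1q-high level in the control (1.87 to 2.14) and 3.31-fold in the PS-MP library (2.91 to 3.77).

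Il1b, the mRNA of the inflammatory cytokine interleukin-1 beta, was widespread in both divisions. It stood at 843.8 CPM in control (814.3 to 874.1) and 695.4 CPM in PS-MP C1q-high cells (652.1 to 740.9), a ratio of 0.824 (0.766 to 0.886). C1q-low cells held 1127 CPM (1093 to 1163) and 961.1 CPM (914.2 to 1010), a ratio of 0.852 (0.804 to 0.904). The C1q-low difference was not seen in cells without markers of other tissues, where the ratio was 0.986 (0.924 to 1.05). Il1b was detected in 267 of 383 control and 105 of 175 PS-MP C1q-high cells, and in 61.1% and 61.9% of C1q-low cells.

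Nos2, which encodes inducible nitric oxide synthase, lay almost entirely outside the macrophages. Granulosa-like cells held 194.4 CPM in the control and 188.6 CPM in the PS-MP library, with a ratio of 0.970 (0.951 to 0.990), and 65.2% and 64.4% of the unselected granulosa-like cells carried a count at median depths of 9907 and 8952 UMIs. By granulosa-like cluster the Nos2 level ran from 64.8 CPM in cluster 8 and 81.6 CPM in cluster 0, both led by Inhba, Inhbb and Grem1 with Cyp19a1, to 299.9 CPM in cluster 4, led by Lrrtm3 and Slc38a3. Cluster 0 was the granulosa-like cluster with more Nos2 in the PS-MP library, at 72.9 and 92.1 CPM and a ratio of 1.26 (1.18 to 1.35).

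The selected cells held little Nos2, and most of that little came with granulosa mRNA. Levels were 13.1 and 17.4 CPM in C1q-high cells and 45.2 and 58.0 CPM in C1q-low cells, with ratios of 1.33 (0.776 to 2.21) and 1.28 (0.986 to 1.66). In C1q-low cells of the macrophage or monocyte-like cluster alone the ratio was 2.06 (1.33 to 3.17). Over that whole cluster, with its cells outside the selection, Nos2 stood at 23.6 and 48.2 CPM (2.04, 1.59 to 2.60). Of those counts, 67 of 149 in the control and 55 of 124 in the PS-MP library lay in the cells outside the selection. A group of 126 selected cells led by the granulosa genes Inha, Nap1l5 and Inhba carried 73.5% of the Nos2 counts of all selected cells. Selected cells with fewer than 50 marker counts of other tissues per 10000 held 9.61 CPM in the control (55 counts) and 13.2 CPM in the PS-MP library (27 counts), near the 8.32 and 7.31 CPM of stromal fibroblast-like cells. Other classes held more, with 59.4 and 80.8 CPM in blood endothelial-like and 108 and 78.1 CPM in T, NK and innate lymphoid-like cells. Plasmacytoid dendritic-like cells held 50.2 and 46.9 CPM (19 and 6 counts). The background thus had no single level, and at this depth a Nos2 level of the macrophages themselves was not separable from it. Few unselected granulosa-like cells held the other 7 genes. Arg1 was found in 3.19% of control and 1.77% of PS-MP cells and Il1b in 2.19% and 0.845%. Retnla, Chil3, Mrc1, Ly6c2 and Ccr2 were found in at most 0.627% in either library. Unselected granulosa-like cells are numerous, and they held 370 of the 3116 Arg1 counts of all control cells (11.9%). In the PS-MP library they held 180 of 540 Arg1 counts (33.3%).

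Arg1 in granulosa-like cells was low but uneven between clusters. For control and PS-MP it stood at 7.72 and 4.25 CPM in cluster 0 and at 9.25 and 5.91 CPM in cluster 8, the Inhba-led clusters, against 0.609 to 1.71 CPM in the other granulosa-like clusters. Over all granulosa-like cells Arg1 had a ratio of 0.598 (0.498 to 0.717), Mrc1 0.637 (0.424 to 0.945) and Il1b 0.384 (0.303 to 0.484). The levels were 3.40 and 2.03 CPM for Arg1, 0.709 and 0.452 CPM for Mrc1, and 2.85 and 1.10 CPM for Il1b. The part of free RNA in these low levels was not tested.

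Clustering the 1272 cells by themselves gave 13 sub-clusters, numbered from 0, and the members lay in different ones. Because the clustering used these genes too, the levels describe the sub-clusters and do not test them. Sub-cluster 1, led by Fn1, Arg1, Thbs1, Chil3 and Clec4e, had 117 control and 70 PS-MP cells, of which 164 were C1q-low in all. It held 66.0% of the Arg1 counts of the selected cells, 65.8% of the Chil3 counts and 32.7% of the Ly6c2 counts. Within it Arg1 was 3009 CPM in the control (2871 to 3151) and 660.5 CPM in the PS-MP library (576.8 to 752.9), a ratio of 0.220 (0.190 to 0.252). Fn1, the fibronectin gene that leads this sub-cluster, had a ratio of 0.703 (0.651 to 0.760) and Thbs1, thrombospondin 1, 1.03 (0.968 to 1.10). Ly6c2 there stood at 448.9 and 754.9 CPM (ratio 1.68, 1.41 to 2.0), Mrc1 at 165.8 and 274.2 CPM (1.65, 1.23 to 2.22) and Ccr2 at 1382 and 1415 CPM (1.02, 0.913 to 1.15).

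The second Arg1-bearing group was sub-cluster 3, led by Gpnmb, Atp6v0d2 and Mmp12, genes of lipid- and debris-laden macrophages. It had 111 control and 48 PS-MP cells and held 21.4% of the Arg1 counts, at 433.0 CPM in the control (398.3 to 469.8) and 158.9 CPM in the PS-MP library (125.6 to 198.3), a ratio of 0.367 (0.286 to 0.466). Arg1 was thus lower in the PS-MP library in both groups that carried most of it.

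Mrc1 was highest in sub-cluster 0, led by Cp, Mmp13 and Bmp2, whose 193 cells were all C1q-high. It stood there at 989.3 CPM in the control and 1141 CPM in the PS-MP library (ratio 1.15, 1.03 to 1.29) and was detected in 95.3% of the cells. The same cells held 1 Arg1 count and no Chil3 or Ly6c2 count. Il1b was 1279 and 761.3 CPM in sub-cluster 0 (ratio 0.595, 0.524 to 0.674) and Ccr2 277.6 and 148.1 CPM (0.533, 0.398 to 0.707). Both ratios were further from 1 here than in C1q-high cells as a whole, though that gap was not tested. Sub-cluster 2, led by the oocyte genes Zp2, Ooep and Dppa3, had 130 control and 37 PS-MP cells, 131 of them C1q-high. It held 17.8% of the Ccr2 counts of the selected cells, at 700.7 and 749.7 CPM (1.07, 0.90 to 1.26). The part of its cell numbers in the Ccr2 ratio of C1q-high cells was not tested.

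Sub-cluster 4, led by Cd209a, Tnip3 and Dcstamp with Ccl17 and Retnla itself, held 62.7% of the Retnla counts in 10 of 130 cells, and this share rested on 1 cell. Of its 200 counts, 163 lay in 2 PS-MP cells, 162 of them in a single cell, and 37 in 8 control cells. These cells had the highest Il1b of all sub-clusters, at 2588 CPM in the control and 2748 CPM in the PS-MP library (ratio 1.06, 0.961 to 1.17), and Ccr2 at 1142 and 1604 CPM (1.40, 1.22 to 1.61). A further 64 Retnla counts (20.1%) lay in 3 control cells of sub-cluster 8, which is led by Igkc, Igha and the proliferation genes Mki67 and Top2a.

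Ly6c2 was highest in sub-cluster 7, led by Siglech, Ccr9 and Cox6a2, markers of plasmacytoid dendritic cells. It stood there at 2158 CPM in 61 control cells and 2461 CPM in 14 PS-MP cells, was found in 88.0% of them, and made up 48.1% of the Ly6c2 counts of the selected cells. Ccr2 was detected in 98.7% of these 75 cells, and Arg1, Retnla and Chil3 had no count in them. Sub-cluster 6, with the conventional dendritic genes Xcr1 and Clec9a, held Ccr2 at 694.6 and 573.9 CPM and Il1b at 553.9 and 579.9 CPM, with Arg1, Retnla and Chil3 again at no count. Sub-cluster 11, led by Ccl22 and Ccr7 of migrating dendritic cells, had 18 cells with no count of Arg1, Retnla, Chil3, Mrc1, Ly6c2 or Ccr2.

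**Figure D3:**
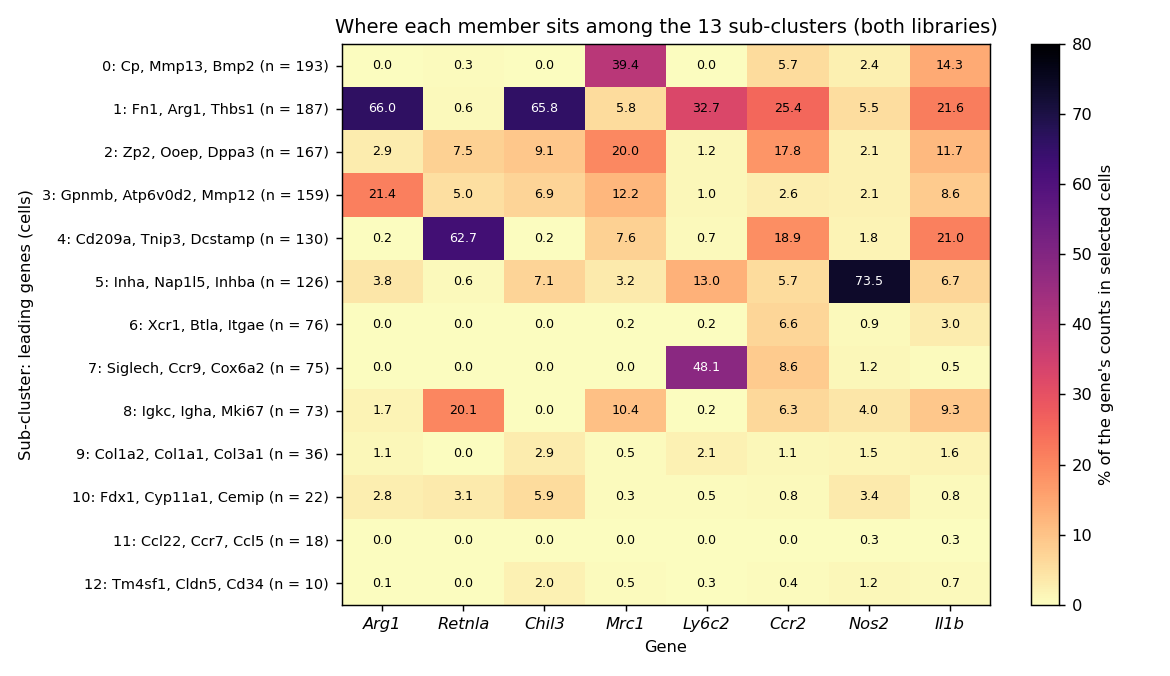
Share of each gene's counts (colour and printed number, in % of its counts in all selected cells of both libraries) that lies in each of the 13 sub-clusters (rows, with their leading genes and cell numbers). Arg1 and Chil3 share sub-cluster 1 (66.0% and 65.8%), the 62.7% of Retnla in sub-cluster 4 rests on 1 cell with 162 counts, and Ly6c2 is highest in sub-cluster 7 (48.1%) and Nos2 in sub-cluster 5 (73.5%).

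Arg1, Chil3 and Retnla overlapped in part, and Mrc1 was found in many of the cells with Arg1. Of 1272 selected cells, 170 held Arg1, 110 Chil3 and 25 Retnla. Arg1 and Chil3 were found together in 45 cells, Arg1 and Retnla in 4, Retnla and Chil3 in 2, and those 2 cells held all 3. In C1q-low cells Chil3 was detected in 29.3% of cells with Arg1 (21.4 to 38.2) and in 8.12% of cells without it (6.05 to 10.6). In C1q-high cells the shares were 19.1% (9.15 to 33.3) and 3.33% (1.95 to 5.27). Mrc1 was found in 39.8% of Arg1-positive C1q-low cells (31.1 to 49.0) and 25.9% of the others (22.4 to 29.6). Among C1q-high cells, where most cells held Mrc1, the shares were 83.0% and 86.9%. Arg1 and Nos2, the 2 enzymes that use arginine, were found together in 13 cells.

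Ly6c2 was found with Ccr2 and with Chil3. In C1q-low cells Ccr2 was detected in 91.0% of Ly6c2-positive cells (86.1 to 94.6) and 65.1% of the others (60.8 to 69.2), and Ly6c2 in 42 of 84 Chil3-positive cells (38.9% to 61.1%) and 24.9% of the others (21.6 to 28.5). The plasmacytoid dendritic-like sub-cluster 7 supplied 66 of the 199 Ly6c2-positive cells, and Ccr2 was detected in 74 of its 75 cells, so the Ly6c2 and Ccr2 pair is in part one of dendritic cells. Over all C1q-low cells Arg1 did not share the relation, and Ly6c2 was present in 26.8% of Arg1-positive cells (19.2 to 35.6) and 28.1% of the others (24.5 to 31.9). Those others include the cells of sub-cluster 7, rich in Ly6c2 and without an Arg1 count. The relation in the remaining cells was not tested. Mrc1-positive C1q-low cells held Ly6c2 less often, in 18.8% (13.7 to 24.9) against 31.5% (27.4 to 35.7), again with sub-cluster 7 included.

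Il1b was found with Mrc1 and Ccr2 and less often with Ly6c2. C1q-low cells with Mrc1 held Il1b in 82.7% (76.7 to 87.6) and those without it in 52.9% (48.5 to 57.3). In C1q-high cells Il1b was present in 80.6% of Ccr2-positive (75.0 to 85.4) and 56.4% of Ccr2-negative cells (50.8 to 61.9). Ly6c2-positive C1q-low cells held Il1b in 50.3% (43.1 to 57.4) and the others in 65.6% (61.3 to 69.7); the plasmacytoid dendritic-like cells, rich in Ly6c2, carried 48 Il1b counts in sub-cluster 7. Nos2 was detected in 9.69% of Ccr2-positive C1q-low cells (7.28 to 12.6) and 25.8% of Ccr2-negative cells (19.8 to 32.4). Cells differ in depth and in type within each division, and the part of either in these pairs was not tested.

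**Figure D4:**
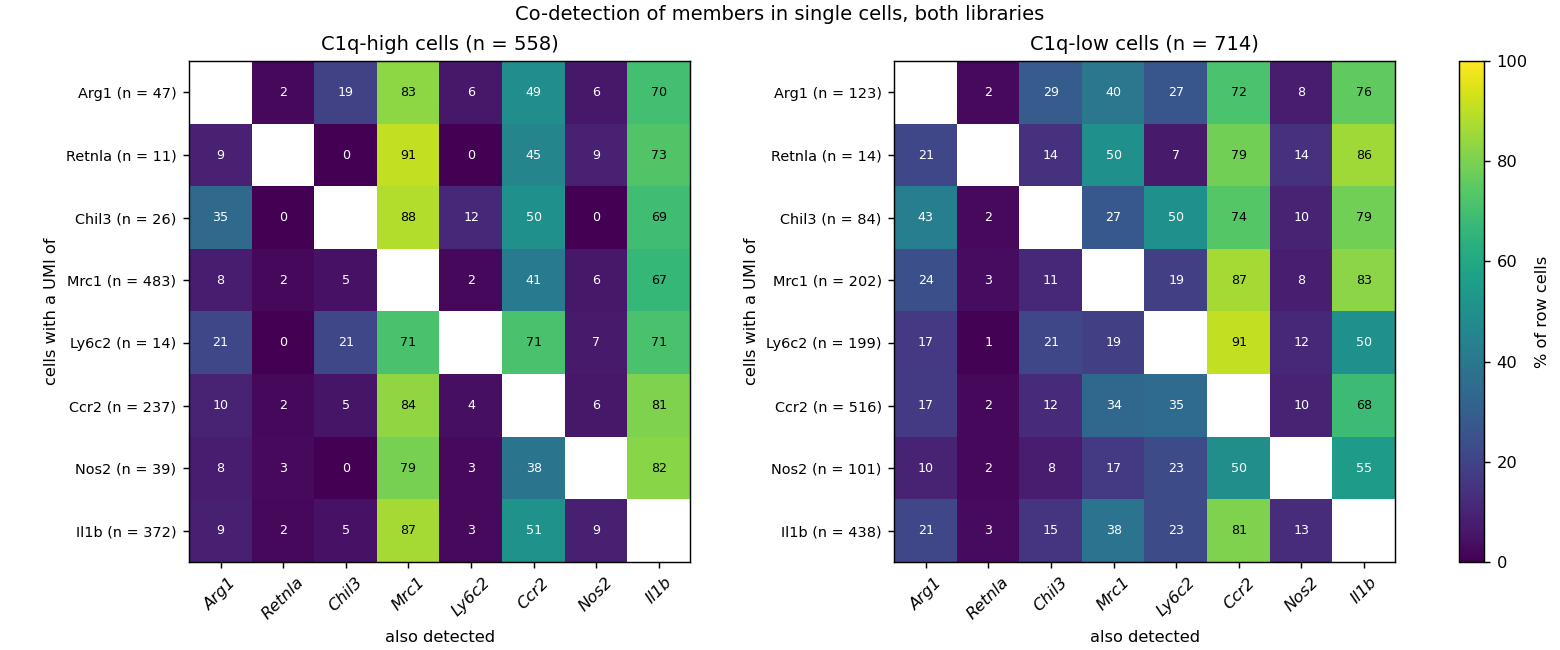
Share of cells (colour and printed number, in %) that hold at least 1 UMI of the column gene among cells with at least 1 UMI of the row gene, for C1q-high (left) and C1q-low cells (right) of both libraries; n is the number of cells with the row gene. In C1q-low cells the Ly6c2 row reaches 91 for Ccr2 and the Arg1 row 29 for Chil3, while the Retnla column stays at 3 or below in every other row.

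A median of 2 of the 8 genes was detected per cell in both divisions and libraries. No cell held more than 6. C1q-low cells with at least 4 of them were listed for the control library as 51 cells with 4, 15 with 5 and 1 with 6, of 478. In the PS-MP library they were 38, 15 and 3, of 236. C1q-high cells with 3 of the genes made up 35.5% of control and 22.3% of PS-MP cells.

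Across the 12 rebuilt classes of the ovary, macrophage or monocyte-like cells had the highest level of Arg1, Retnla, Mrc1 and Il1b in both libraries, and the highest Chil3. In that class, which also holds 99 cells outside the selection, the control and PS-MP levels were 429.5 and 136.3 CPM for Arg1, 369 and 376 CPM for Mrc1 and 1155 and 994 CPM for Il1b. Ly6c2 was highest in plasmacytoid dendritic-like cells, at 1932 CPM in 70 control and 1413 CPM in 22 PS-MP cells. T, NK and innate lymphoid-like cells held 130 and 98 CPM of it, and the macrophage or monocyte-like class 51 and 203 CPM. Of the Ly6c2 counts of that last class, 21 of 320 in the control and 153 of 523 in the PS-MP library lay in its cells outside the selection. For Ccr2 the order in the control library was plasmacytoid dendritic-like cells at 1069 CPM, conventional dendritic-like cells at 550 CPM, macrophage or monocyte-like cells at 476 CPM and lymphoid cells at 179 CPM. In the PS-MP library conventional dendritic-like and macrophage or monocyte-like cells changed places, at 433 and 501 CPM, and their intervals overlapped in both libraries. Conventional dendritic-like cells came second for Il1b, at 452 and 409 CPM.

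Among the 99 macrophage or monocyte-like cells outside the selection, 623 Il1b counts were found, and 476 of them lay in cells with at least 2 counts of S100a8 or S100a9, the calprotectin genes of neutrophils. Those cells also held nearly all of the Cxcr2 counts of the 99, 146 of 159, and no Ctss count, so they were outside the selection by its rule. Luteal-like cells held Nos2 at 13 CPM in the control and 56 CPM in the PS-MP library, but the class came from different clusters, cluster 12 with 229 control and 131 PS-MP cells and cluster 6 with 8 and 1898.

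**Figure D5:**
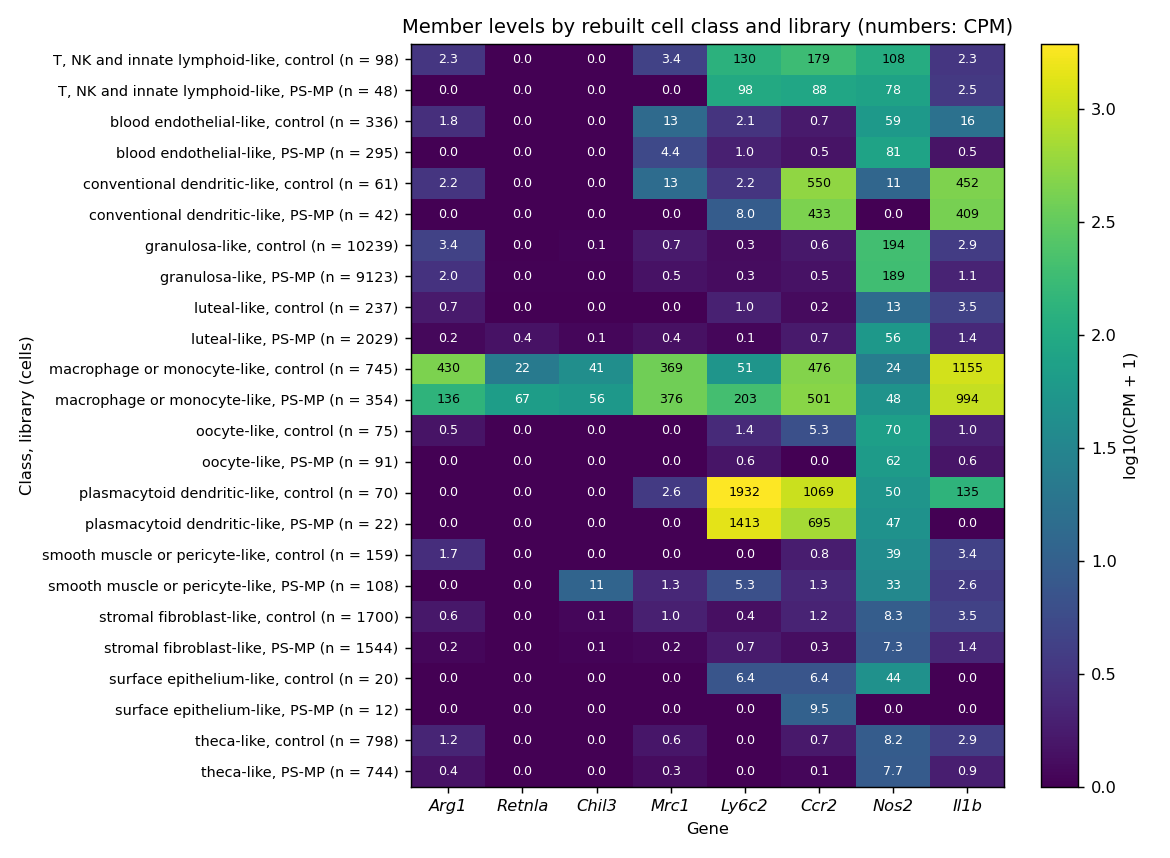
Level of each gene (columns) in every rebuilt class and library (rows, with cell numbers); the colour is log10(CPM + 1) and the printed number is CPM. Nos2 is highest in granulosa-like cells (194 and 189 CPM), Ly6c2 and Ccr2 in control plasmacytoid dendritic-like cells (1932 and 1069 CPM), and the other 5 genes in macrophage or monocyte-like cells.

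Genes with the most similar pattern were sought over 21 combinations of class and library with at least 30 cells, by Pearson's r of log2(CPM + 5). The values are descriptions, since the combinations share libraries and depth. Arg1 was most like Ms4a4a (r = 0.990), Retnla like Ccl12 (0.988), Chil3 like Pilra (0.981) and Mrc1 like Ms4a6d (0.978). The Retnla value rests on the macrophage or monocyte-like class, at 21.6 CPM in the control and 67.2 CPM in the PS-MP library. Every other class held at most 0.432 CPM, and 1 cell held 162 of the 183 PS-MP counts of selected cells. Ly6c2 was most like Cd200r1 (0.973). Ccr2 was most like Arhgap30 (0.995) and Il1b like Ebi3 (0.984). Nos2 was most like Syt7 (0.956), a synaptotagmin, followed by Me3 and Slc6a15 at 0.955 and 0.941.

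Cells with at least 2 counts of a member were also compared with all other cells of the same division, which include those with 1 count. The 102 C1q-low cells with at least 2 Arg1 counts held Hal, histidine ammonia-lyase, at 759.5 CPM against 52.4 CPM in the others. Fn1 stood at 3703 and 366 CPM, Spp1, osteopontin, at 1584 and 201 CPM, the chemokine Ccl24 at 232.9 and 11.5 CPM, and Ccl6 at 2808 and 376 CPM. The 35 such C1q-high cells were also led by Fn1, at 873.9 and 52.9 CPM. C1q-low cells with at least 2 counts of Mrc1 or of Il1b held more Mgl2 at 917.9 against 180.8 CPM and at 582 against 42.1 CPM. Ptgs2, cyclooxygenase 2, was higher with Il1b in C1q-low cells, at 512 against 62.6 CPM, and in C1q-high cells, at 200.7 against 51.7 CPM. The 49 C1q-low cells with at least 2 Nos2 counts were led by Slc18a2 (506.4 against 54.2 CPM) and Kctd14 (560.8 against 71.9 CPM), and Slc18a2 was a leading gene of the granulosa-like cluster 2.

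The alternatively activated list of 20 genes, which includes 4 of the members, had 16 genes at 20 CPM or more in C1q-low cells, of which 4 were lower and 1 higher by the same limits (4.55% and 5.69% of all genes). The higher gene was Retnla, whose direction turned with 1 cell. The lower genes included the chemokines Ccl17, at 59.8 and 12.2 CPM (ratio 0.204, 0.122 to 0.324), and Ccl24, at 53.3 and 11.6 CPM (0.218, 0.128 to 0.349). Its median log2 ratio was -0.16, against -0.01 over all genes tested. In C1q-high cells 13 genes were measured and 2 were lower (3.21% of all genes). They were Ccl24 at 40.5 and 13.8 CPM (0.340, 0.199 to 0.550) and the scavenger receptor Cd163 at 23.8 and 15.2 CPM (0.640, 0.377 to 1.04). The median there was 0.04, against -0.02 over all genes. Mgl2, a galactose-type lectin, was the remaining lower gene of C1q-low cells beside Arg1, at 366.3 and 198.4 CPM (0.542, 0.478 to 0.612), while in C1q-high cells its ratio was 1.03 (0.947 to 1.12).

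The classically activated list, with Nos2 and Il1b, had 16 measured genes in C1q-low cells, 4 higher and 4 lower (5.69% and 4.55% of all genes), and a median log2 ratio of 0.02, against -0.01 over all genes. Socs3, a feedback inhibitor of cytokine signalling, stood at 94.6 and 172.8 CPM (1.83, 1.55 to 2.15) and the formyl peptide receptor Fpr2 at 16.8 and 36.6 CPM (2.18, 1.5 to 3.16). Cxcl9, an interferon-gamma-induced chemokine, was lower at 36.5 and 4.89 CPM (0.134, 0.0566 to 0.272), and so was Acod1, which makes itaconate, at 21.6 and 10.4 CPM (0.480, 0.266 to 0.820). Cxcl9 was also a leading gene of sub-cluster 6, the C1q-low cells with Xcr1 and Clec9a. The part of dendritic cells in its ratio was not tested. None of the 12 measured genes of the list passed the limit in C1q-high cells, where 8.15% of all genes did so in either direction.

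Among 25 polarising receptors and signal transducers, 24 were measured in C1q-high and 22 in C1q-low cells. Il4ra, the interleukin-4 receptor chain, was the 1 lower gene in C1q-high cells (3.21% of all genes), at 30.1 and 16.0 CPM (0.530, 0.319 to 0.843). No gene was lower in C1q-low cells (4.55% of all genes). Stat6 stood at 87.6 and 67.2 CPM in C1q-low cells (0.767, 0.612 to 0.956), within the limit.

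Of 3 measured CCR2 ligands, 1 was higher in C1q-high cells (4.94% of all genes) and 1 in C1q-low cells (5.69% of all genes). In both it was Ccl12, at 204.4 and 371.3 CPM in C1q-high cells (1.82, 1.62 to 2.04) and 18.0 and 75.1 CPM in C1q-low cells (4.18, 3.07 to 5.75). Ccl2 and Ccl7, the other measured ligands, were within the limit in both, with ratios of 1.10 and 1.05 in C1q-high and 1.01 and 0.799 in C1q-low cells. Stromal fibroblast-like cells also held Ccl2, at 105.9 and 134.2 CPM. Of 15 classical monocyte genes, 9 were measured in C1q-high cells and 2 were lower (3.21% of all genes), Ccr2 and the calcium-binding S100a4 with 155 and 29 counts (0.496, 0.321 to 0.741). In C1q-low cells 14 were measured, and 1 was higher and 1 lower (5.69% and 4.55% of all genes). The higher gene was Ms4a4c at 72.1 and 109.3 CPM (1.51, 1.24 to 1.84).

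Of 13 interleukin-1 system genes 9 were measured in each division. In C1q-high cells 1 was higher (4.94% of all genes), and in C1q-low cells 1 was higher and 1 lower (5.69% and 4.55%). The higher genes were Il18bp, which binds interleukin-18, with 210 and 131 counts in C1q-high cells (1.65, 1.32 to 2.07), and the receptor Il1r1, at 12.9 and 23.8 CPM in C1q-low cells (1.84, 1.17 to 2.89). The lower gene was Il1a, with 74.9 and 47.0 CPM in C1q-low cells (0.627, 0.480 to 0.811) and 158.7 and 161.7 CPM in C1q-high cells (1.02, 0.869 to 1.19). The receptor antagonist Il1rn had ratios of 0.734 (0.651 to 0.825) in C1q-high and 0.776 (0.707 to 0.850) in C1q-low cells, in the same direction as Il1b. Of 8 arginine metabolism genes measured in C1q-high cells 1 was lower (3.21% of all genes). It was Asl, argininosuccinate lyase, at 47.9 and 31.9 CPM (0.666, 0.468 to 0.932). In C1q-low cells 9 were measured and 1, Arg1, was lower (4.55% of all genes). Arg2, the mitochondrial arginase, had ratios of 1.17 (0.953 to 1.42) and 0.793 (0.604 to 1.03) in C1q-high and C1q-low cells.

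Markers of other tissues moved with the library in the selected cells, and their part in the differences beyond the values given above was not tested. Luteal markers summed to 269.5 and 921.7 CPM in C1q-high and 1020 and 1870 CPM in C1q-low cells, stromal fibroblast markers to 103.7 and 247.3 CPM and to 686.5 and 1801 CPM. Not all tissues rose. Granulosa markers, the largest of these sums, stood at 942.9 and 1046 CPM and at 4593 and 4038 CPM. Blood endothelial markers stood at 53.6 and 38.4 CPM and at 191.4 and 87.9 CPM. Oocyte markers stood at 8.21 and 37.7 CPM and at 176 and 6.72 CPM. Plasmacytoid dendritic markers summed to 1362 and 881.7 CPM and T, NK and innate lymphoid markers to 301.1 and 166.7 CPM in C1q-low cells. With the cells richest in other tissues left out, Ccr2 in C1q-low cells had a ratio of 1.17 (1.08 to 1.26).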

How the data were processed

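Ovarian cells of 1 control and 1 PS-MP library were analysed. The authors deposited raw UMI counts per gene and cell. The submitters' processing notes name Seurat and GRCm39, without a role. The aligner, the counting settings and the annotation were not stated there or in the labels. The files held 15373 control and 15056 PS-MP cells, with 160257194 and 145474989 UMIs.

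Cells with at least 500 genes and at most 25% mitochondrial counts were kept, and predicted doublets (315 and 358) were left out, which left 14538 and 14412. Cells were clustered with scanpy 1.11.5 and leidenalg 0.10.2 (2000 variable genes, 30 components, resolution 0.5, no batch correction), and classes were rebuilt from marker lists, so they may differ from the study's. Counts were summed per group of cells and library. Intervals are exact Poisson for CPM, exact conditional binomial for ratios and Clopper-Pearson for shares (scipy 1.17.1), and the script was tested on simulated data. With 1 library per group there was no test across samples. No correction for free RNA was made. A gene passed a limit with 20 CPM in a library and a 1.5-fold ratio.

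The members and gene lists were chosen with earlier results of these data known. Genes named were the members, the selecting genes, paralogs, up to 4 genes per list with the largest ratios, the 3 most similar genes and the 5 leading genes of positive cells per member, leading genes of sub-clusters, and cell type markers. The granulosa-like clusters described by their leading genes were chosen after their values were seen. Some items are not reported here.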

Additional observations from a re-analysis of the deposited data

How the results depend on the processing

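No paired analysis was possible because each group has 1 library. The cause of each shift below was not tested. Of the 8 genes' ratios, 15 moved by more than their interval, 1 reversed and 184 did not move. The reversed value was Retnla in C1q-low cells, 0.461 without the highest cell of each library, an alternative chosen after seeing the data. Without those cells Arg1 in C1q-high cells was 0.416.

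Genes at least 1.5-fold higher in C1q-high cells numbered 124 with a limit of 2-fold, 686 at a minimum of 10 CPM, 107 at 50 CPM and 531 with thinned cells, and those lower 33, 446, 67 and 448. In C1q-low cells the higher genes numbered 141 at 2-fold, 746 at 10 CPM, 160 at 50 CPM and 696 in the macrophage clusters only. The lower ones numbered 84, 653, 88 at those 3 settings, 566 with thinned cells and 604 without cells rich in other tissues.

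With thinned cells the ratio was 0.998 for Arg1 in C1q-high and 1.30 for Mrc1 in C1q-low cells. Without cells rich in other tissues C1q-low ratios were 0.276 for Arg1, 1.17 for Ccr2 and 0.986 for Il1b. With 3 UMIs of Tyrobp and Ctss they were 1.15 for Ccr2 and 0.975 for Il1b. In macrophage clusters only they were 1.19 for Ccr2, 2.53 for Ly6c2 and 2.06 for Nos2, and Ly6c2 was 1.94 without plasmacytoid dendritic-like cells. With a C1q limit of 5, Ly6c2 was 2.65 and Retnla 0.427 in C1q-high cells, and Retnla 5.04 in C1q-low cells.

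The C1q-high share of PS-MP and control selected cells was 49.8% and 49.9% with 3 UMIs, 53.6% and 56.4% in macrophage clusters only, and 48.9% and 49.6% without cells rich in other tissues. The selected share was 2.21% and 5.08% with 3 UMIs, 4.27% and 8.93% with at most 10% mitochondrial counts, and 2.24% and 4.66% in macrophage clusters only.

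Shares of positive cells follow as PS-MP then control. In C1q-low cells of macrophage clusters they were 18.7% and 31.2% for Arg1, 84.7% and 75.6% for Ccr2, 24.0% and 15.6% for Chil3, 82.0% and 80.3% for Il1b, and 43.3% and 43.7% for Mrc1, with control values of 18.0% for Ly6c2 and 6.78% for Nos2. With 3 UMIs they were 89.4% and 80.8% for Ccr2 and 69.4% and 66.8% for Il1b, with 38.1% for PS-MP Mrc1 and control values of 30% for Ly6c2 and 7.03% for Nos2. Thinned C1q-high shares were 25.1% and 37.6% for Ccr2, 50.3% and 62.7% for Il1b, 69.7% and 73.9% for Mrc1, 5.14% and 3.13% for Nos2, and 2.61% for control Chil3. Thinned C1q-low shares were 9.75% and 7.95% for Nos2, with control values of 65.5% for Ccr2, 54.8% for Il1b and 21.8% for Mrc1. Control Nos2 in C1q-high cells was 9.20% with doublets kept and 9.35% with no cell filter, and in C1q-low cells 9.49% with at most 10% mitochondrial counts.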
